A study of Mus musculus with 4 samples.

Results

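The values described here are those of 10 genes of blood vessel endothelium (Pecam1, Cdh5, Cldn5, Kdr, Tek, Tie1, Eng, Emcn, Egfl7 and Vwf) in sorted mouse alveolar type II (AT-II) cells, the surfactant-making epithelium of the lung alveolus. They were taken by name from 27349 genes on an Agilent mouse expression array, on which 15 of 41174 gene probes carried one of these names. The cells came from lungs of wild-type (WT) or Tlr3-/- (Tlr3-deficient) mice, all labelled female. The mice had either no tumor or Lewis lung carcinoma (LLC, a mouse lung cancer line) placed under the skin 2 weeks earlier. The age of the mice, how Tlr3 was disrupted, the sorting gate and the number of mice per array are not given in the sources used here. There were 4 groups with 1 array per group. No difference had a replicate check, no p-value could be given, and each difference describes a pair of arrays.

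Endothelial cells line blood vessels, and in the lung a dense capillary bed lies directly against the alveolar epithelium. They seal the vessel wall through VE-cadherin and claudin junctions and respond to VEGF and angiopoietins through receptor tyrosine kinases. They also store von Willebrand factor for haemostasis. AT-II cells are epithelial, and these genes are widely used as markers of vessel cells. In bulk RNA, fewer endothelial cells and less endothelial RNA per cell cannot be told apart.

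Each value is the log2 processed intensity minus the 75th percentile of the gene spots on the same array, written below as a log2 level. The 75th percentiles were intensities of 555 to 904, 61.0% to 65.4% of gene spots were well above background, and 0 spots were saturated. The labels were checked against marker genes. Sftpc, a surfactant protein gene that defines AT-II cells, had log2 levels of 8.84 and 9.30 on the WT arrays without and with tumor, and 9.39 and 9.03 on the Tlr3-deficient arrays without and with tumor. This order of arrays is used for all values below, and comparisons are ordered as tumor in WT, tumor in Tlr3-deficient mice, genotype without tumor and genotype with tumor. Tlr3, which encodes a receptor for double-stranded RNA, had levels of -3.93, -3.94, -5.45 and -5.30, and missed the background threshold on the Tlr3-deficient array without tumor. On that array 4 transcripts of the Y chromosome (Ddx3y, Eif2s3y, Kdm5d, Uty), chosen after their values were seen, were well above background. Xist was at -4.05 there, against 3.80 to 4.05 on the other 3. This goes against the label of female mice, so the 2 comparisons that do not use this array are also given on their own. The arrays lay on 3 slides. The array of WT mice with tumor shared a slide with that of Tlr3-deficient mice without tumor, and slide and group cannot be told apart.

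All 10 endothelial genes were well above background on all 4 arrays, whichever group the array came from. In both genotypes, 9 of the 10 were lower on the tumor array, and 1, Vwf, was higher. All 10 were higher on the Tlr3-deficient array than on the WT array, both without and with tumor. The differences were small: the median log2 difference was -0.41 with tumor in WT and -0.33 with tumor in Tlr3-deficient mice, and 0.45 without tumor and 0.51 with tumor between genotypes. Over all genes tested, the medians were 0.00, -0.01, -0.04 and -0.05 in the same order. The scanner's error of 1 difference was 0.20 to 0.21, and it covers the reading of spots, not animals. The difference exceeded this error for 9, 7, 10 and 10 of the 10 genes in the 4 comparisons. Over 167 probes with replicate spots, the SD of the difference between spots was 0.29, 0.11, 0.29 and 0.10 in the same order. It was larger than the scanner's error where the WT array without tumor was used. With tumor in WT, Cldn5 at -0.16 and Emcn at -0.21 were within that SD. Between genotypes without tumor, Eng at 0.30 and Tek at 0.31 were just above it.

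Differences of at least 2-fold were called, over genes that cleared the background threshold on 1 or both arrays of the pair. With tumor in WT mice, 0 of 10 endothelial genes were called in either direction, where 5.65% of 17828 genes tested were called higher and 1.55% lower. With tumor in Tlr3-deficient mice, 0 of 10 were called, where 4.5% of 18004 genes were called higher and 3.9% lower. These calls used the brightest probe of each gene. A dimmer probe was more than 2-fold lower with tumor for Cdh5 and Tek in WT and for Tek in Tlr3-deficient mice. Between genotypes, Vwf alone was called, as higher, both without tumor, where 5.9% of 17492 genes were called higher and 2.34% lower, and with tumor, where 2.91% of 18118 genes were called higher and 2.64% lower. A call for 1 of 10 genes is close to these shares, so single calls do not set the genes apart from the array. The scaling between arrays moved the split of calls over all genes: in WT mice 78.4% of calls with tumor were higher, against 66.4% after quantile normalization and 63.7% after centring on the median, and between genotypes without tumor 71.6% against 62.0% and 62.0%. With these scalings 9 of 10 endothelial genes were again lower with tumor in both genotypes, and all 10 were again higher in Tlr3-deficient mice.

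**Figure D1:**
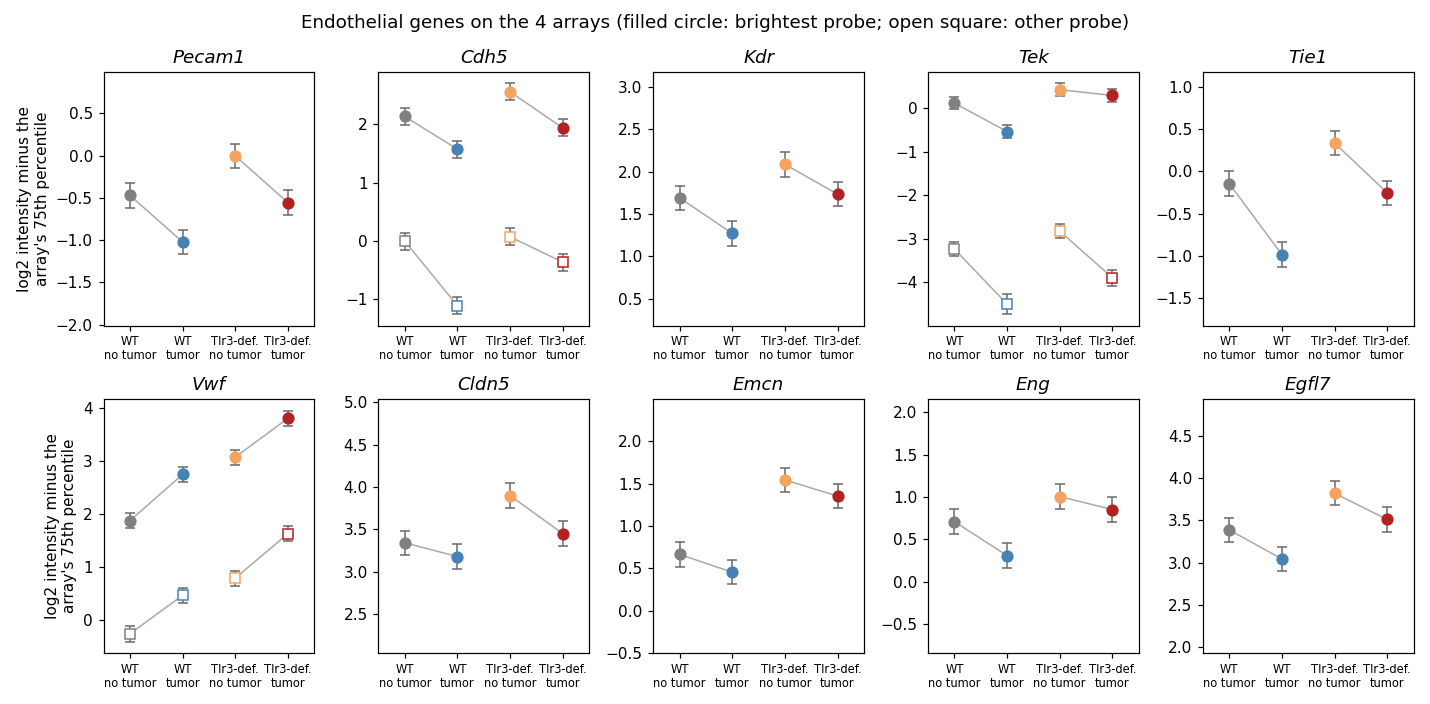
Log2 level (log2 intensity minus the array's 75th percentile) of the 10 endothelial genes on the 4 arrays, with 1 array per group. Filled circles are the brightest probe of a gene, open squares another probe that was well above background, bars the scanner's error, and lines join arrays of a genotype. In 9 panels the tumor array lies below the array without tumor in both genotypes, and for Vwf it lies above.

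The first group of genes encodes proteins of the junctions between endothelial cells. Pecam1 encodes CD31, an adhesion molecule at endothelial junctions that platelets and many leukocytes also carry. The array annotation places its probe at chr11:106542389-106544242 (mm9, minus strand), a range longer than the probe. Its 60 bases are shown, in lower case throughout, because they are the stretch that was read:
Pecam1 probe: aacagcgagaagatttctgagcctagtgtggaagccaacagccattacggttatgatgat
Pecam1 had log2 levels of -0.47, -1.02, -0.00 and -0.56. The Tlr3-deficient array without tumor was the highest and the WT tumor array the lowest. With tumor the level was 1.46-fold lower in WT and 1.47-fold lower in Tlr3-deficient mice, and Tlr3-deficient arrays were 1.38-fold higher both without and with tumor. A second, single-spot probe of Pecam1 was not well above background on any array.

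This Pecam1 probe was spotted 10 times on each array, as was 1 probe of Kdr, so these 2 genes show the spread of the measurement within an array. The SD over the 10 Pecam1 spots was 0.27 on the WT array without tumor and 0.07 on each of the other 3. On the WT array without tumor the spots ran from -1.12 to -0.14. On the WT tumor array they ran from -1.09 to -0.86, so the spots of those arrays overlapped. With tumor, 9 of 10 spots were lower in WT and 10 of 10 in Tlr3-deficient mice, and between genotypes 10 of 10 were higher in both tumor states. The wide scatter lay in array columns 1 to 51 of the WT array without tumor, where 6 Pecam1 spots had an SD of 0.36, against 0.08 for the 4 spots in columns 52 to 85. The mean tumor difference of Pecam1 in WT was -0.52 over the first set of spots and -0.58 over the second.

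**Figure D2:**
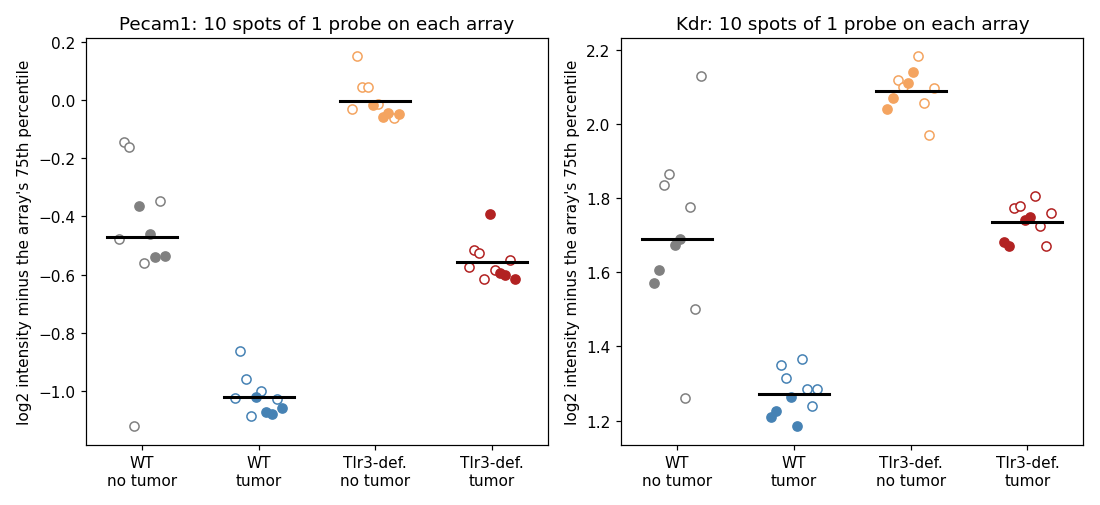
Log2 level of each of the 10 spots of 1 Pecam1 probe and 1 Kdr probe on the 4 arrays. Open circles lie in array columns 1 to 51, filled circles in columns 52 to 85, and the black line is the mean of the 10 spots; the WT array without tumor has SDs of 0.27 for Pecam1 and 0.23 for Kdr, and the other arrays have SDs of 0.05 to 0.07.

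Cdh5 encodes VE-cadherin, the cadherin of endothelial adherens junctions. It had log2 levels of 2.14, 1.57, 2.56 and 1.94, and the array order was the same as for Pecam1. The tumor array was 1.48-fold lower in WT and 1.54-fold lower in Tlr3-deficient mice, and the genotype differences were 0.42 without tumor and 0.37 with tumor. A second, dimmer Cdh5 probe in the same accession gave the same directions with other sizes. Its tumor difference was -1.11 in WT and -0.44 in Tlr3-deficient mice, and its genotype difference was 0.07 without tumor and 0.75 with tumor. The size of the Cdh5 difference therefore depended on the probe, and with the dimmer probe it passed 2-fold in WT.

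Cldn5 encodes claudin-5, the main claudin of endothelial tight junctions. Its levels were 3.34, 3.18, 3.90 and 3.45. The WT arrays lay below both Tlr3-deficient arrays, and the tumor difference in WT, -0.16, was within the scanner's error. In Tlr3-deficient mice the tumor difference was -0.45. This made Cldn5 the gene of the 10 with the most negative difference between the tumor effects of the genotypes, at -0.29.

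The second group encodes receptors. Kdr encodes VEGF receptor 2, the main signalling receptor for VEGF-A in endothelium. Its levels were 1.69, 1.27, 2.09 and 1.74, each a mean of 10 spots. With tumor it was 1.34-fold lower in WT and 1.28-fold lower in Tlr3-deficient mice, and the Tlr3-deficient arrays were 1.32-fold and 1.38-fold higher. Of the 10 Kdr spots, 9 were lower with tumor in WT and 10 in Tlr3-deficient mice, and 9 without tumor and 10 with tumor were higher in Tlr3-deficient mice. A second Kdr probe, designed to an Ensembl transcript about which no annotation was used here, was not well above background on any array.

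Tek and Tie1 encode the Tie receptors. Tek (Tie2) binds angiopoietins, and Tie1 is its partner receptor without a well-defined ligand of its own. Tek had log2 levels of 0.12, -0.53, 0.43 and 0.30. The WT tumor array was the low one, and the Tlr3-deficient arrays differed by -0.13, less than the scanner's error. Tek had the widest gap between the tumor differences of the genotypes among the 10 genes, 0.52. However, a dimmer Tek probe gave -1.27 in WT and -1.06 in Tlr3-deficient mice, both past 2-fold. The gap was not seen with both probes.

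Tie1 was read by 1 probe at chr4:118144132-118144191 (mm9, minus strand), whose 60 bases are given because Tie1 had the most negative tumor difference of the 10 genes in WT:
Tie1 probe: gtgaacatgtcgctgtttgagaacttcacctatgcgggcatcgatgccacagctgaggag
Tie1 had log2 levels of -0.14, -0.98, 0.34 and -0.25. The WT tumor array lay below the others, and the Tlr3-deficient array without tumor above them. The tumor arrays were 1.79-fold lower in WT and 1.50-fold lower in Tlr3-deficient mice, and the Tlr3-deficient arrays were 1.40-fold and 1.66-fold higher.

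Eng encodes endoglin, a co-receptor for BMP9 and BMP10 in endothelium, and its log2 levels were 0.71, 0.31, 1.0 and 0.85. Both Tlr3-deficient arrays were above both WT arrays, and the tumor difference in Tlr3-deficient mice, -0.15, was within the scanner's error. In WT it was -0.40.

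The third group holds a surface sialomucin and secreted proteins. Emcn encodes endomucin, a sialomucin of capillary and venous endothelium. Its levels were 0.66, 0.45, 1.54 and 1.35, so the arrays fell into a pair for each genotype. The Tlr3-deficient arrays were 1.84-fold higher without tumor and 1.87-fold higher with tumor, next in size to Vwf, while the tumor differences were -0.21 and -0.19. With normexp background correction the genotype difference of Emcn without tumor was 1.12, past 2-fold.

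Egfl7 encodes a matrix protein secreted by endothelial cells and hosts a microRNA, miR-126, in its gene. Its levels were 3.39, 3.04, 3.82 and 3.51. The tumor differences were -0.34 and -0.31 and the genotype differences 0.43 and 0.47. The tumor differences of Egfl7 in the genotypes were thus 0.03 apart.

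Vwf encodes von Willebrand factor, which tethers platelets to damaged vessel walls and is made by endothelial cells and by megakaryocytes, the precursors of platelets. Both of its probes were well above background on all 4 arrays, and the dimmer one lies at chr6:125635858-125635917 (mm9, plus strand). Its 60 bases are shown because Vwf is the gene whose tumor difference ran the other way, and this probe gave a separate reading of it:
Vwf probe: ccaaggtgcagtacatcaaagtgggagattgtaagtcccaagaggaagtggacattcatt
The brighter probe had log2 levels of 1.88, 2.75, 3.08 and 3.81, and the dimmer one -0.26, 0.47, 0.79 and 1.63. With both probes the WT array without tumor was lowest and the Tlr3-deficient tumor array highest. The brighter probe was 1.83-fold higher with tumor in WT and 1.67-fold higher in Tlr3-deficient mice. Between genotypes it was 2.29-fold higher without tumor and 2.09-fold higher with tumor. The log2 differences of the dimmer probe were 0.73, 0.84, 1.05 and 1.16 in the order of comparisons, so neither tumor difference reached 2-fold and both genotype differences did. With normexp background correction the genotype difference without tumor was 0.99, just under 2-fold.

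**Figure D3:**
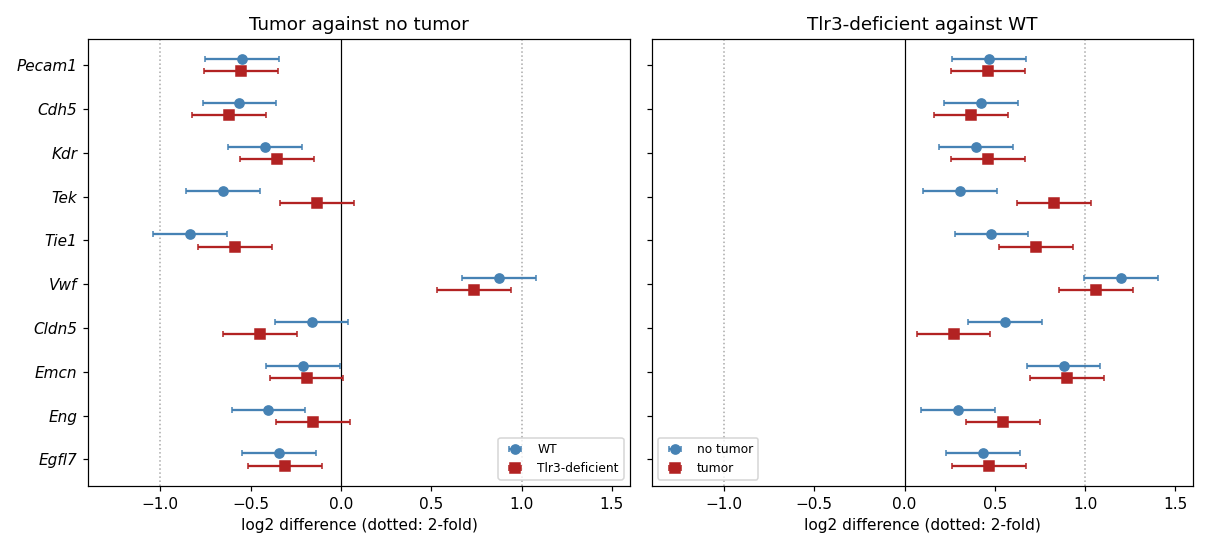
Log2 differences of the 10 endothelial genes between pairs of arrays, with the scanner's error of the difference as bars and dotted lines at 2-fold. On the left, circles are tumor against no tumor in WT and squares in Tlr3-deficient mice; on the right, circles are Tlr3-deficient against WT without tumor and squares with tumor. Vwf is the only gene right of 0 on the left, and all 10 genes lie right of 0 on the right.

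Set against the rest of the array, being lower with tumor in both genotypes was common: 33.0% of the 15677 genes measured above background on every array were, and so were 9 of the 10 endothelial genes. Being higher with tumor in both genotypes held for 27.7% of these genes and for Vwf. Being higher in Tlr3-deficient mice in both tumor states held for 21.4% of genes and for all 10 endothelial genes. The full pattern, lower with tumor in both genotypes and higher in Tlr3-deficient mice in both tumor states, held for 7.48% of genes and for 9 of 10 endothelial genes. Of the 10, 6 had one order of arrays, with both Tlr3-deficient arrays above both WT arrays and, in each genotype, the tumor array below the other. This order held for 3.46% of genes. In Pecam1, Cdh5 and Tie1 the middle arrays were exchanged. Of the 10, 9 were highest on the array labelled Tlr3-deficient without tumor and 9 were lowest on the WT tumor array. These 10 genes share their source RNA, so they are not 10 independent readings of a condition.

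The tumor comparisons of the genotypes share no array with each other, and the genotype comparisons share none with each other, but a tumor and a genotype comparison have an array in common. The values that do not use the array labelled Tlr3-deficient without tumor were those of WT with against without tumor, with 9 of 10 genes lower, and of Tlr3-deficient against WT with tumor, with 10 of 10 higher. Over all genes tested, 49.6% and 50.7% were lower with tumor in WT and in Tlr3-deficient mice, and 45.1% and 43.1% were higher in Tlr3-deficient mice without and with tumor. Within the slide that held these arrays of opposite genotype and tumor state, all 10 genes were higher on the Tlr3-deficient one, by a median log2 difference of 0.89 and by 0.32 for Vwf to 1.32 for Tie1. The difference between the tumor effects of the genotypes had a median of 0.03 over the 10 genes and ran from -0.29 for Cldn5 to 0.52 for Tek, against a median of 0.02 over the 15677 genes.

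Other endothelial genes were taken from 6 lists (pan-endothelial genes, transcription factors, capillary, arterial, venous and lymphatic genes), 92 genes in all, of which 87 were well above background on all 4 arrays. Of these 87, 56.3% were lower with tumor in both genotypes, 77.0% were higher in Tlr3-deficient mice in both tumor states, and 47.1% did both. Over all genes these shares were 33.0%, 21.4% and 7.48%. In the pan-endothelial list the medians of the 4 comparisons were -0.39, -0.20, 0.39 and 0.68. Within it 0 of 28 and 0 of 29 genes tested were called with tumor. Between genotypes, 3 of 28 were called higher without tumor (Ecscr at 1.09, Myct1 at 1.41 and Ushbp1 at 1.16) and 4 of 29 with tumor (Clec14a at 1.05, Mmrn2 at 1.10, Adgrl4 at 1.21 and Gpr182 at 1.01). Over all genes tested, 5.65%, 4.5%, 5.9% and 2.91% were called higher in the order of comparisons. The shares called lower were 1.55%, 3.9%, 2.34% and 2.64%. These shares also apply to the calls in the lists below. With normexp background correction Clec14a, Adgrl4 and Gpr182 were under 2-fold, and with median centring Ecscr was.

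Other receptors of the same pathways were read on the same arrays. Flt1, VEGF receptor 1, had tumor differences of -0.64 in WT and -0.20 in Tlr3-deficient mice and genotype differences of 0.36 and 0.80. Nrp1, a VEGF co-receptor, had tumor differences of -0.28 in WT and 0.24 in Tlr3-deficient mice. The WT difference was within the SD between replicate spots of that comparison, 0.29, so its direction was not resolved. Acvrl1, the ALK1 receptor that works with endoglin, was higher with tumor in both genotypes, by 0.54 and 0.13. The second of these was close to the SD between replicate spots, 0.11. Flt4, the VEGF receptor of lymphatic vessels, was not well above background on any array.

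Genes of ligands of these receptors and of other secreted factors were read as a list, and AT-II cells themselves make VEGF-A. Vegfa had log2 levels of 4.01, 4.01, 5.14 and 4.32, and stood high on the array labelled Tlr3-deficient without tumor alone, where it was called higher than in WT at 1.12. Taking the mean of its probes ended that call. Angpt1, an activating ligand of Tek, had tumor differences of 0.67 in WT and -0.91 in Tlr3-deficient mice. Its log2 levels were -4.93, -4.27, -3.93 and -4.85, close to the lowest signals well above background (-5.41 to -5.22). The opposite signs of Angpt1 thus rest on dim readings. Angpt2, the ligand that often opposes Angpt1, had tumor differences of -0.01 and 0.13. Angptl4, a secreted inhibitor of lipoprotein lipase, was called lower with tumor in WT at -1.70 and lower in Tlr3-deficient mice without tumor at -1.37, and Tgfb2 was called lower with tumor in Tlr3-deficient mice at -1.89 and higher in Tlr3-deficient mice without tumor at 1.56. The Angptl4 genotype call was lost with normexp. Bmp10 and Gdf2, which encode the ligands of endoglin and ALK1, were not well above background on any array. Bmp6 was called higher in Tlr3-deficient mice with tumor at 1.10, a call that normexp ended. Of 14 ligand genes tested with tumor, 1 was called lower in each genotype and 0 higher.

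Among 16 transcription factors, the medians were -0.32, -0.43, 0.70 and 0.50. Erg, an ETS factor that maintains endothelial identity, had tumor differences of -0.53 and -0.11 and genotype differences of 0.45 and 0.87. Sox17, a SOXF factor, had tumor differences of -0.44 and -0.47 and genotype differences of 0.94 and 0.91. The genotype calls were Fli1 at 1.04, Ets1 at 1.11 and Sox7 at 1.10 without tumor, and Sox7 at 1.28 and Sox18 at 1.22 with tumor, all higher in Tlr3-deficient mice. These were 3 and 2 of 16 factors, where 5.9% and 2.91% of all genes were called higher. Gata2 was called lower with tumor in Tlr3-deficient mice at -1.16, as 1 of 16, where 3.9% of all genes were. The call of Fli1 was lost with median centring and that of Sox7 without tumor with the mean of its probes. Several of these factors are also expressed outside endothelium, and Klf2, Klf4 and Epas1 are among them. Which cells carried the called differences of the factors was not tested.

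By vessel type, capillary genes had medians of -0.56, -0.43, 0.45 and 0.47. Apln, the ligand apelin, was called lower with tumor at -1.16 in WT and -1.63 in Tlr3-deficient mice, and Fibin at -1.35 and -1.18. Rgcc, a cell cycle regulator found in capillary endothelium and also elsewhere, had log2 levels of 6.61, 7.12, 7.63 and 5.97, with a WT tumor difference of 0.51 and a call of -1.66 in Tlr3-deficient mice. Rgcc thus stood low on the Tlr3-deficient tumor array, unlike the 10 endothelial genes, and the difference was not tested. Between genotypes it was called higher without tumor at 1.02 and lower with tumor at -1.16, Sema3c was called higher without tumor at 1.08 and Chst1 higher with tumor at 1.05. Of 18 capillary genes, 2 in WT and 3 in Tlr3-deficient mice were called lower with tumor, where 1.55% and 3.9% of all genes were. Between genotypes, 2 were called higher without tumor, where 5.9% of all genes were. With tumor, 1 was called higher and 1 lower, where 2.91% and 2.64% of all genes were. The WT call of Apln and the calls of Sema3c and Chst1 fell under 2-fold with normexp, and that of Rgcc without tumor with median centring.

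Arterial genes had medians of -0.30, -0.29, 0.32 and 0.34, and venous genes -0.01, 0.09, 0.27 and 0.45. The arterial connexin gene Gja4 was called higher in Tlr3-deficient mice at 1.10 without tumor and 1.64 with tumor, Gja5 at 1.30 without tumor, and Efnb2 was called lower with tumor in Tlr3-deficient mice at -1.07. Of 10 venous genes, Selp and Lrg1 were called higher with tumor in Tlr3-deficient mice. Selp encodes P-selectin, which is stored with von Willebrand factor in endothelial granules and is also carried by platelets. It had log2 levels of -4.73, -4.06, -4.63 and -3.58, and its tumor differences were 0.68 and 1.05. Like Vwf it was higher on both tumor arrays, but its genotype differences were 0.11 and 0.48. Lrg1, a secreted glycoprotein that neutrophils also make, had tumor differences of -0.33 and 1.29 and a genotype difference of 1.46 with tumor. Amigo2 was called higher in Tlr3-deficient mice at 1.83 and 1.19 and Vegfc at 1.23 with tumor. Between genotypes, 2 of 9 arterial and 1 of 10 venous genes were called higher without tumor, where 5.9% of all genes were. With tumor, 1 of 9 arterial and 3 of 10 venous genes were, where 2.91% of all genes were. The 2 venous calls with tumor in Tlr3-deficient mice stand beside 4.5% of all genes called higher. With normexp, the calls of Efnb2, Gja5, Selp and Amigo2 with tumor were under 2-fold.

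Lymphatic vessels were looked for through Prox1, the factor that defines lymphatic endothelium. It was not well above background on any array. Lyve1, a hyaluronan receptor of lymphatic endothelium and of some macrophages, had log2 levels of 1.32, 0.43, 0.90 and 0.55. The medians of the 7 lymphatic genes tested were 0.18, -0.35, 0.59 and 0.49, and with 1 lower limit in place of its measured difference the first was 0.14. Pdpn, shared with the alveolar type I list, was called lower with tumor in Tlr3-deficient mice at -1.14 and higher without tumor between genotypes at 1.02. Reln, below the background threshold on the WT array without tumor, was at least 2.07-fold higher in Tlr3-deficient mice without tumor. Both genotype calls were lost with quantile normalization, and the tumor call of Pdpn with normexp.

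Genes of haemostasis and leukocyte adhesion in vessels were mixed in direction. Of 10 haemostasis and vascular tone genes tested, Procr and Vwa1 were called higher with tumor in Tlr3-deficient mice at 1.49 and 1.15. Thbd, which encodes thrombomodulin, an anticoagulant receptor of endothelium, had tumor differences of -0.63 and -0.60 and genotype differences of 0.64 and 0.67. Ace was called higher in Tlr3-deficient mice with tumor at 1.01, which normexp ended. Icam1 and Vcam1, leukocyte adhesion receptors, had tumor differences of -0.04 and -0.21 in WT and 0.03 and -0.01 in Tlr3-deficient mice, and Sele was not well above background on any array. Glycam1 cleared the background threshold on the Tlr3-deficient tumor array alone, where it was at least 4.19-fold higher than without tumor and at least 4.73-fold higher than in WT. With normexp the tumor difference of Glycam1 was under 2-fold. Madcam1 was at least 2.02-fold lower with tumor in Tlr3-deficient mice, a call that quantile normalization ended.

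**Figure D4:**
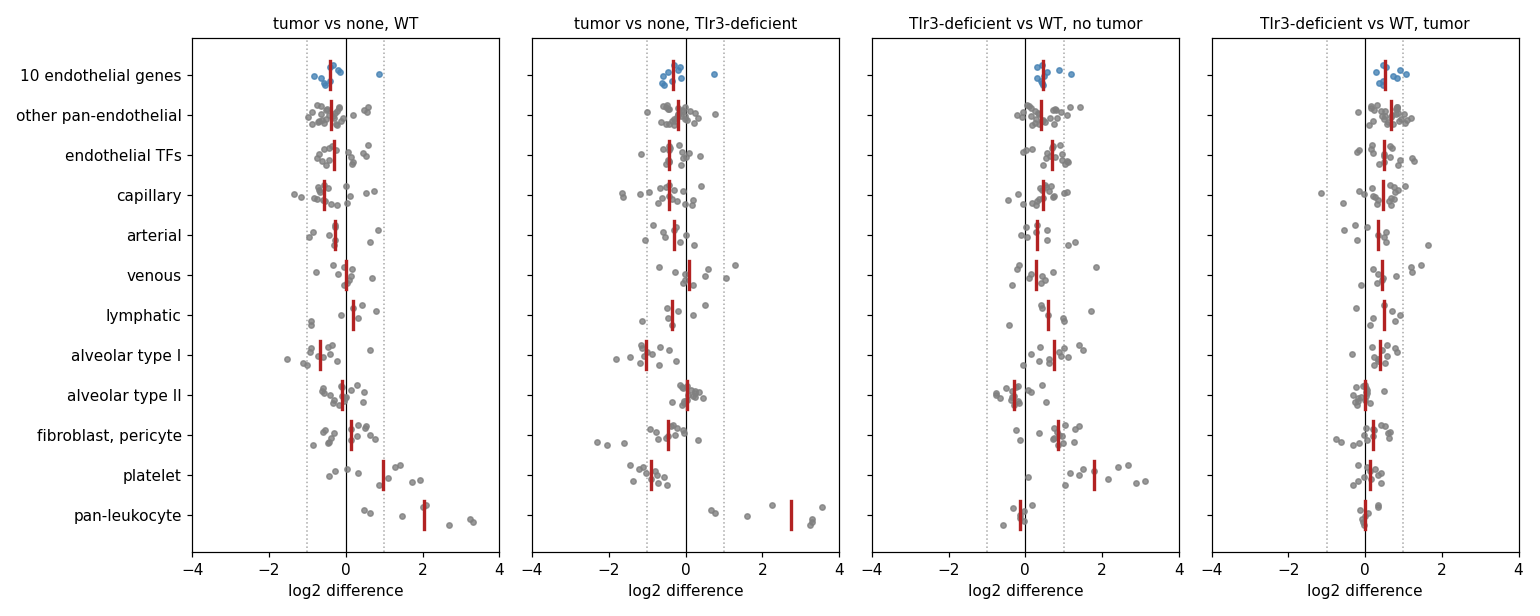
Log2 difference of each gene tested in 12 lists, with 1 panel per comparison. Points are genes at their measured differences, red lines list medians, and dotted lines 2-fold; the pan-endothelial, transcription factor, capillary, arterial and alveolar type I medians lie left of 0 in both tumor panels and right of 0 in both genotype panels, the venous medians lie near 0 with tumor, and the alveolar type II medians lie between -0.29 and 0.05.

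Markers of other cells moved in the same comparisons. The alveolar type I list had medians of -0.66, -1.04, 0.75 and 0.38, and 9 of its 12 genes had the full pattern of the 9 endothelial genes. Of these 12 genes, Pdpn and Emp2 were also in endothelial lists, and without them 7 of 10 had the pattern. Whether the remaining 10 are also expressed in endothelium was not checked. Its summed level (the sum of levels on the linear scale, in units of the array's 75th percentile) was 452, 314, 593 and 349. Its defining marker Ager had log2 levels of 5.50, 4.50, 5.43 and 4.74. The summed level of the 10 endothelial genes was 37.8, 33.7, 56.1 and 50.6. The alveolar type II list had medians of -0.11, 0.05, -0.29 and -0.01 with 0 of 17 genes called in any comparison, and a summed level of 2201 to 2476. Col1a1, the fibroblast collagen gene, was called lower with tumor in Tlr3-deficient mice at -2.04. The 15 fibroblast and pericyte genes had medians of 0.14, -0.46, 0.86 and 0.21, the first 0.05 with 1 lower limit in place of its measured difference. The part of these cells in the endothelial differences was not tested.

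Platelets and leukocytes bear on Vwf and Pecam1, which they or their precursors also express. The platelet list had medians of 0.98 with tumor in WT and -0.90 in Tlr3-deficient mice, and 1.78 without tumor and 0.14 with tumor between genotypes. With 2 lower limits in place of measured differences, the third of these medians was 1.51. Vwf and the platelet list were both higher with tumor in WT, where Vwf differed by 0.87, and between genotypes without tumor, where Vwf differed by 1.20 and all 11 platelet genes were higher. With tumor in Tlr3-deficient mice Vwf was higher by 0.74 and all 11 platelet genes were lower. Between genotypes with tumor Vwf was higher by 1.06 and 7 of 11 platelet genes were higher. The part of platelet RNA in the Vwf differences was not tested. Pf4, a platelet chemokine gene, had log2 levels of 0.91, 1.77, 1.94 and 1.44, and Itga2b, the platelet integrin gene, cleared the background threshold on the 2 Tlr3-deficient arrays only. Pan-leukocyte genes had medians of 2.05 and 2.74 with tumor, or 1.77 and 1.92 with 1 lower limit in place of its measured difference, and Ptprc, which encodes CD45, had log2 levels of -3.21, -0.52, -3.79 and -0.55. Pecam1 was lower by 0.55 in both genotypes where Ptprc was higher.

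The promoter windows of the endothelial genes were searched for the core of the ETS factor motif, GGAA, and for the longer GGAAGT, on both strands (every GGAAGT also holds a GGAA). RefSeq promoter windows on GRCm38.p6 matched 7 of the 10 genes, with 9 windows, since Egfl7 has several starts. The 250 bases before each start were used. GGAA or its reverse TTCC was found in 8 of 9 windows and in 93.4% of 32851 promoters of the same length, so its presence does not mark these genes. GGAAGT was found in 5 of 9 windows, those of Egfl7, Eng, Kdr and Tie1, and in 19.7% of all promoters. Matches of GGAA ran from 0 in Cldn5 to 7 in Tie1, with a median of 3 over all promoters. A match is a description of the letters and was not tested as a binding site. The windows of Tie1, Kdr and Cldn5 are shown as the ones with the most matches, a receptor with 4 and the one with 0, at chr4:118489850-118490099 (minus strand), chr5:75978456-75978705 (minus strand) and chr16:18776597-18776846 (plus strand) on GRCm38.p6. Capitals mark GGAA and TTCC:
Tie1 promoter: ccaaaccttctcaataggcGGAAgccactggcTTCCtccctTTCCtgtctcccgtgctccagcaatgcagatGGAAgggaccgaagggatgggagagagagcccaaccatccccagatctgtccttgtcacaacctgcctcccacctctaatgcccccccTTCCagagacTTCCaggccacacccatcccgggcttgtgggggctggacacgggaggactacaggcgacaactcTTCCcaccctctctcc
Kdr promoter: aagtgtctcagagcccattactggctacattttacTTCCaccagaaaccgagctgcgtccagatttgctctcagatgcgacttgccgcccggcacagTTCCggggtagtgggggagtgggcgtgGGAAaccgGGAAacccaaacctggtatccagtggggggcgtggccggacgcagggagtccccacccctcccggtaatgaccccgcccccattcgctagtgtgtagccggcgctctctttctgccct
Cldn5 promoter: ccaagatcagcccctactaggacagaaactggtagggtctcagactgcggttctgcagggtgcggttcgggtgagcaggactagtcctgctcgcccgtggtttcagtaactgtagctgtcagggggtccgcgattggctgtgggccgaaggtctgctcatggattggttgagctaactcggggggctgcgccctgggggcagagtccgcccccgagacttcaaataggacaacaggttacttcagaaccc
Cldn5, with no match in this window, was lower with tumor and higher in Tlr3-deficient mice, as were Tie1 and Kdr. Its tumor difference in WT, -0.16, was within the scanner's error. A relation between the matches and the differences of the genes was not tested.

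The genes most like the 10 were found from the median pattern of the 10 over the 4 arrays, each gene centred on its own mean. The likeness was the root mean square log2 distance over 4 arrays, over 15677 genes. The endothelial genes themselves lay 0.02 (Kdr) to 0.69 (Vwf) from the pattern, with a median of 0.11. The pattern was made from these genes, so their own distances to it are lowered by construction. The 5 nearest other genes were Kif7, a probe named NAP098046-001, Ddr2, Stab1 and Zfp286, at 0.02 to 0.03. Of 15667 other genes, 109 (0.696%) were as near as the median endothelial gene, and 6 of those came from the lists described here. The other near genes were in none of the lists, which hold a small part of the 15667 genes. Whether list genes were nearer to the pattern than other genes was not tested.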

How the data were processed

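Total RNA of sorted AT-II cells was labelled with Cy3 and hybridised to 4 Agilent arrays (design 014868), per the labels. Per the file headers, Agilent Feature Extraction (version 10.7.3.1) read the spots. The deposited processed intensity is linear, background-subtracted and not scaled between arrays. The authors also deposited a table of log2 values, whose scale is that of log2 intensity (r of 0.9995 to 0.9998 with the scanner values) and whose making no source used here describes. Its column medians were 6.31 to 6.32, and it served as an alternative only.

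Each array was scaled to the 75th percentile of all its gene spots, outlier spots included. Outlier spots were then left out and the spots of a probe averaged. A gene took its probe with the highest mean. Of 41174 probes, 27668 were named through RefSeq accessions. The rest took the file's own name, or the current symbol where that name was a synonym of 1 gene only. A gene was tested when the scanner's flag put it well above background on 1 or both arrays of a pair, and called at 2-fold or more. Where only 1 array carried the flag, the fold is a lower limit ("at least"), taken against the dim probe's value or the lowest flagged signal on that array, whichever was higher. With 1 array per group no test was possible, and the number of arrays limits the precision. Alternatives were quantile normalization, median centring, normexp (limma 3.58.1, offset 50), the mean of all probes, no filter, a stricter filter, the deposited table and outlier spots kept. Using only array columns 52 to 85 was added after seeing the data. The rest was done in Python 3.11.15 with pandas 2.3.3. The code was tested on simulated data, made from a single real array with added spot noise. Such data hold no variation between animals or slides, so they do not show how the calls behave here.

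The 10 genes and all gene lists were chosen with earlier results of these data known. Named beyond the 10 were list genes called at least once, a set of defining markers, ligands and receptors, and the 5 genes nearest the median pattern. Erg, Sox17, Epas1, Klf2, Klf4, Thbd, Icam1, Vcam1, Sele, Xist and the Y-linked genes were chosen after their values were seen. Probe coordinates come from the array's annotation (mm9). No gene models of that build were used, so exon and UTR positions are not given.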

Additional observations from a re-analysis of the deposited data

Results flagged for a closer look

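The median tumor difference had opposite signs in the genotypes for markers of platelets and of red blood cells, each of 1 pair of arrays, and the difference was not tested. For the platelet list the tumor difference was 0.98 in WT and -0.90 in Tlr3-deficient mice, so the latter minus the former was -1.88. For the erythroid list it was 1.81 in WT and -1.20 in Tlr3-deficient mice, and the latter minus the former was -3.00. With 1 lower limit in place of its measured difference, the WT erythroid median was 1.52. None of the 10 endothelial genes had tumor differences of opposite sign in the genotypes.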

How the results depend on the processing

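No paired analysis was possible because each group has 1 array. For the 10 endothelial genes, 348 values were recomputed under 9 alternatives. Of these, 331 kept their side of 2-fold and moved by less than the spread of replicate spots, 14 moved further, 1 fell under 2-fold, 2 passed it and 0 called values changed sign. Uncalled differences changed sign 3 times: Tek with normexp, to 0.08 with tumor in Tlr3-deficient mice and to -0.07 between genotypes without tumor, and Pecam1 with the mean of all probes, to -0.03 between genotypes without tumor, where the mean includes a probe not well above background. Using only array columns 52 to 85, which hold probes of 7 of the 10 genes, 1 gene was called lower with tumor in WT (Cdh5, by its dimmer probe), and the median genotype difference with tumor was 0.73. The platelet gene Itgb3 turned from 1.51 to -0.10 between genotypes without tumor there, where other spots represent it.

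Counts of called genes over the whole array are given as higher and lower, in the order tumor in WT, tumor in Tlr3-deficient mice, genotype without tumor and genotype with tumor. With the main settings they were 1007 and 277, 811 and 702, 1032 and 409, and 528 and 478. With normexp they were 462 and 131, 407 and 328, 508 and 238, and 251 and 185. With no filter on dim probes they were 2072 and 812, 1443 and 1567, 2101 and 1020, and 1042 and 1262. With genes well above background on all 4 arrays they were 544 and 147, 441 and 359, 596 and 256, and 229 and 237. In array columns 52 to 85, with fewer genes tested, they were 276 and 124, 368 and 255, 186 and 234, and 221 and 260. The deposited table gave 625 lower between genotypes without tumor. Median centring shifted the median of all genes by -0.15 with tumor in WT and -0.09 between genotypes without tumor, and normexp by -0.13 and -0.10. Relative to the median of all genes under each, the endothelial median was -0.41 and 0.49 with median centring and -0.43 and 0.54 with normexp. Of 148 called differences of the other lists, 88 stayed at 2-fold or more under each of the first 8 alternatives. The lowest signals well above background were at log2 levels of -5.41 to -5.22, and list genes close to them, such as Selp and Angpt1, carry the least signal over background.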
